A study of Mus musculus with 15 samples.

Results

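Resting bone marrow-derived macrophages (BMDM) that lacked Nelfb were compared with resting wild-type (WT) BMDM in their polyadenylated RNA. The comparison used 6 of the 15 RNA-seq libraries of the series, 3 of resting Nelfb KO and 3 of resting WT cells, and 11258 of the 23996 genes listed, namely those with a mean of at least 0.5 FPKM (fragments scaled to transcript length and library depth) over the 5 groups. All mice were C57BL/6 and carried Lyz2-Cre, a recombinase driven by the lysozyme 2 locus in myeloid cells. WT mice were Nelfb+/+ and KO mice were Nelfb fl/fl. The resting groups (WT_0min and Nelfb_KO_0min) received no lipopolysaccharide (LPS), whereas WT_30min, WT_60min and Nelfb_KO_30min received LPS at 10 ng/ml for 30 or 60 min, and each group held 3 libraries. Macrophages were grown from marrow in medium with L929 cell supernatant as the source of macrophage colony stimulating factor. The deposited expression values are 1 average per gene and group and give no spread between libraries, so no replicate error and no test accompany them here. The table's own columns of p-values and q-values were not used, and all levels below are the authors' group averages.

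The negative elongation factor (NELF) is a complex that holds RNA polymerase II shortly after it has started transcription, until the kinase P-TEFb releases the polymerase into the gene. NELFB is 1 of its 4 subunits. In human cells NELF also associates with the nuclear cap-binding complex and takes part in forming the 3′ ends of histone mRNAs, which normally close with a stem-loop in place of a poly(A) tail. In BMDM, growth factor keeps a part of the culture dividing, and the genes of DNA synthesis and mitosis are read in that part.

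Nelfb itself (chr2:25199712-25211489, mm10) was the check of the labels. Its level was 21.9 FPKM in WT_0min, 19.7 in WT_30min and 17.5 in WT_60min, against 5.65 in Nelfb_KO_0min and 5.55 in Nelfb_KO_30min. Both KO groups lay below all WT groups, and the log2 ratio of FPKM + 1 in resting KO was -1.79 to resting WT and -1.64 to WT_30min. The gene level value does not separate the floxed exons from the rest of the transcript. Nelfe, which encodes the RNA-binding subunit, was at 33.7 FPKM in WT_0min but between 19.5 and 19.9 in the other 4 groups, so its log2 ratio was -0.76 to resting WT and -0.01 to WT_30min. The log2 ratios of Nelfa were -0.08 and -0.11, and those of Nelfcd were -0.29 and 0.13, against the same references.

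The pattern of Nelfe recurred in many genes, and it followed transcript length. Kept genes were put into 10 equal bins by length. In the shortest bin (56 to 1173 nt) the median log2 ratio of resting KO to resting WT was -0.33, and it was 0.15 in the longest (6440 nt and more). Against WT_30min the same medians were 0.04 and -0.06. WT_30min against WT_0min, a comparison of WT cells alone, gave -0.35 in the shortest and 0.21 in the longest bin. Of the genes in the shortest bin 14.9% were lower in resting KO than in resting WT by the limit given next, against 0.27% in the longest. WT_30min was therefore used as another reference. It carries its own limit, since it includes the early response to LPS, and both ratios share the same KO libraries.

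**Figure D1:**
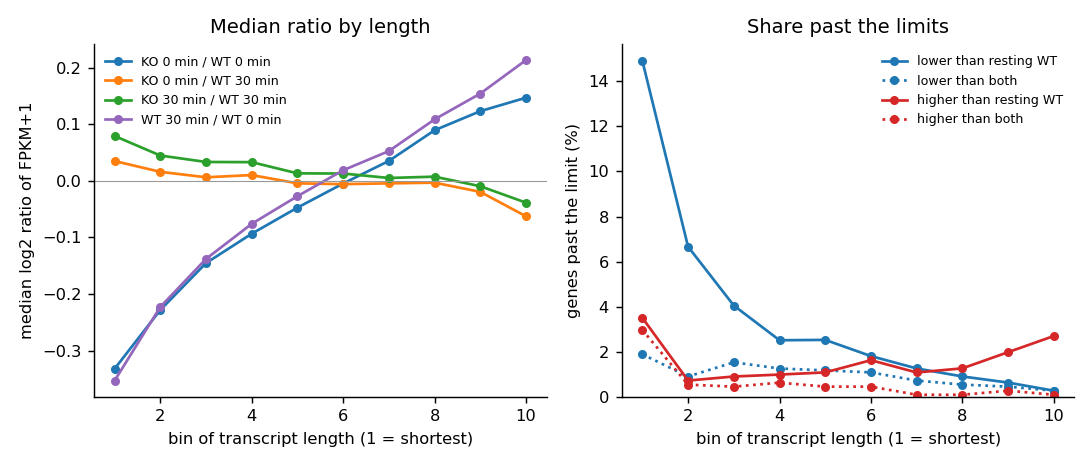
Kept genes in 10 bins of transcript length, from the shortest (1) to the longest, with the median log2 ratio of FPKM + 1 (left) for 4 pairs of groups and the percent of genes past the limits (right). Both pairs that contain WT_0min run from about -0.33 or -0.35 in the shortest bin to 0.15 or 0.21 in the longest, and the pairs without it stay within 0.08 of 0.

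A gene was counted as higher at a ratio of FPKM + 1 of at least 1.4 and as lower at a ratio of at most 0.6, the fold limits in the study's methods. Against resting WT, 184 genes (1.63%) were higher and 406 (3.61%) were lower in resting KO. Against WT_30min the counts were 133 (1.18%) and 210 (1.87%). Past the limit against both references were 71 genes higher (0.631%) and 112 lower (0.995%), which is 38.6% of the 184 and 27.6% of the 406. The split against resting WT depended on scaling: it was 241 higher and 339 lower after median scaling, 329 and 279 after quantile normalization, and 274 and 240 once the trend over length was removed. Against both references quantile normalization gave 94 and 98.

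**Figure D2:**
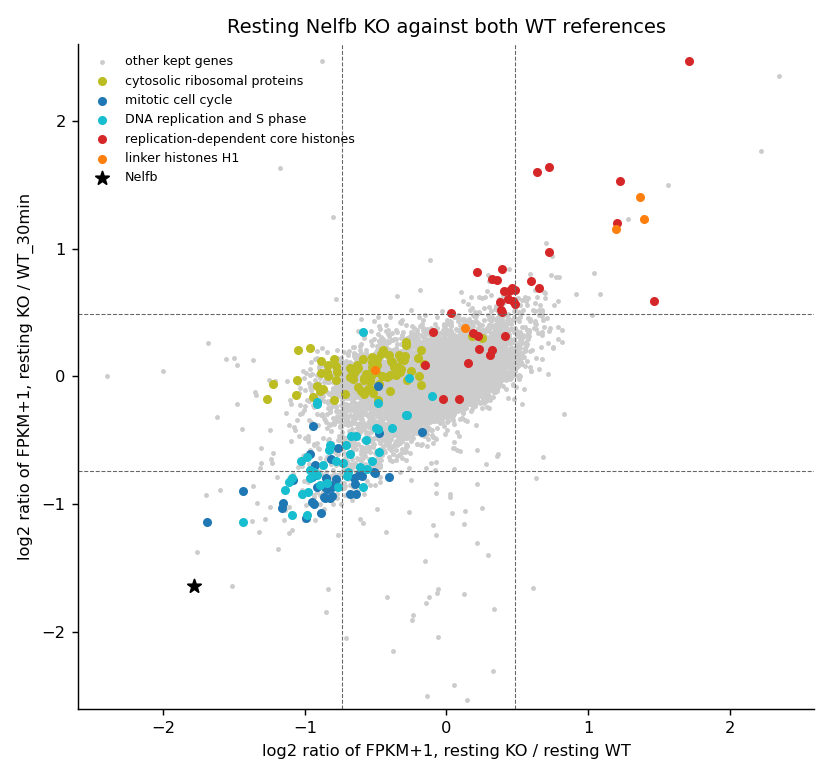
Each point is a kept gene, with the log2 ratio of FPKM + 1 in resting Nelfb KO to resting WT (x axis) and to WT_30min (y axis), which share the KO libraries. Dashed lines mark the ratios 1.4 and 0.6, and 77 genes lie outside the axes. Mitotic and replication genes extend to the lower left, core and linker histones to the upper right, and cytosolic ribosomal proteins spread to the left near 0 on the y axis.

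Nelfb_KO_30min and WT_30min share no library with the resting pair. In that pair 228 genes (2.03%) were higher and 153 (1.36%) lower. Of the 406 genes lower at rest 99 (24.4%) were also lower at 30 min, which is 64.7% of the 153. Of the 184 higher at rest 65 (35.3%) were also higher at 30 min, 28.5% of the 228. Of the genes past the limit against both references, 94 of 112 lower and 50 of 71 higher passed at 30 min as well, although WT_30min is in both of these counts.

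The mitotic list was the one with the most genes lower against both references. Of 40 mitotic genes, 28 were lower than in resting WT, 23 were lower against both references and none was higher. Their median log2 ratio was -0.85 to resting WT and -0.84 to WT_30min, where the medians of all kept genes were -0.021 and -0.0037. In 39 of the 40, both KO groups lay below all 3 WT groups, an arrangement found in 21.7% of kept genes, and Pttg1, which encodes securin, was the exception. Stmn1, encoding the microtubule-destabilising protein stathmin, was at 127 FPKM in WT_0min, 86.9 in WT_30min and 85.2 in WT_60min, and at 38.9 and 39.9 in the KO groups at 0 and 30 min. Birc5, the survivin subunit of the chromosomal passenger complex, was at 30.2, 20.5 and 20.5 FPKM in the WT groups in order of time and at 10.5 and 11.3 in KO. For both genes the lowest WT group was well above the higher KO group. Spc25, a part of the NDC80 kinetochore complex, had log2 ratios of -1.16 to resting WT and -1.03 to WT_30min, and Cdca3, which promotes entry into mitosis, had -1.15 and -0.99.

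Of 45 genes of DNA replication and S phase 23 were lower than in resting WT, 14 were lower against both references and none was higher, with median log2 ratios of -0.77 and -0.67. In 43 of the 45 both KO groups lay below all WT groups. Tk1, the thymidine kinase of the salvage pathway, was at 31.3 FPKM in WT_0min, 25.2 in WT_30min and 23.7 in WT_60min, against 10.9 and 10.5 in KO. Uhrf1, which couples DNA methylation to replication, was at 14.6, 14.5 and 14.04 FPKM in the WT groups and at 6.33 and 6.29 in KO. Mcm7, a subunit of the replicative helicase whose locus also holds Mir93, had log2 ratios of -1.14 to resting WT and -0.89 to WT_30min, and Chaf1b, a subunit of chromatin assembly factor 1, had -1.11 and -0.83. These are bulk cultures, so fewer dividing cells and less of these RNAs per dividing cell cannot be told apart.

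The promoters of the mitotic genes are shown for 4 members, to show the elements counted over the whole list in the next paragraph. The choice used 1 of these elements, as they are the 4 with the lowest ratio nearer to 1 among mitotic genes lower against both references whose 150 bases before the RefSeq start (GRCm38.p6) hold TTTGAA on either strand, the core of the cell cycle homology region that keeps such genes silent outside division, and they were named after their values were seen. Top2a encodes topoisomerase II alpha, Ube2c an enzyme that ubiquitinates mitotic cyclins, Cdk1 the mitotic kinase and Kif22 a chromosome-bound kinesin. Capitals mark TTTGAA and the CCAAT element on either strand, and the sequences run 5′ to 3′ on the strand of the gene.
Top2a (chr11:99024190-99024339, minus strand): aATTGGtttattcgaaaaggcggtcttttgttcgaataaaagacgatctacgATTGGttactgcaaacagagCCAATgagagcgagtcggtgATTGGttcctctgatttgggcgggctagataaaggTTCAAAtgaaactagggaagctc
Ube2c (chr2:164769779-164769928, plus strand): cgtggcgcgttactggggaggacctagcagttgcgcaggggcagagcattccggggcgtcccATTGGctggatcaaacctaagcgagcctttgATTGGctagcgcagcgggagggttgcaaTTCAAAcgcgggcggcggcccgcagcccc
Cdk1 (chr10:69352913-69353062, minus strand): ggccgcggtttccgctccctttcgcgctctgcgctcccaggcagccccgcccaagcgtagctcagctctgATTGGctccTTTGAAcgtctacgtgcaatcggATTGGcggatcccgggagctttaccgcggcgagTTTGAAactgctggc
Kif22 (chr7:127042421-127042570, minus strand): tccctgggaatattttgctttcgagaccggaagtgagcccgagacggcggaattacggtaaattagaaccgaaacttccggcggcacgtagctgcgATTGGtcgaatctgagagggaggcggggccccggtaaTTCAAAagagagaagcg
Top2a was at 19.5, 21.2 and 22.7 FPKM in the WT groups in order of time and at 9.30 and 9.39 in KO. Cdk1 was at 18.4, 18.7 and 19.4 FPKM in WT and at 9.95 and 10.6 in KO. In Top2a and Cdk1 the WT groups lay close to each other, whereas Kif22 was at 7.93, 6.39 and 6.23 FPKM in WT. In each of the 4 genes both KO groups lay below all WT groups.

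The letters were counted on both strands in windows of 250 bases before to 50 after the start, which 34 of the 40 mitotic genes had in RefSeq. TTTGAA, searched after the values were seen, was in 24 of the 34 (70.6%), against 12.2% of the 8753 kept genes with a window (77.7% of the kept genes) and 18.1% of all 27025 windows. It was also in 16 of 29 core histone windows (55.2%), genes that were higher or inside the limits, and in 5 of 35 windows of the replication list. TTTNNCGC, the other element searched after the values were seen, was in 13 of the 35 replication windows. It was in 5 of the 34 mitotic windows (14.7%) and 8 of the 29 core histone windows (27.6%), against 9.09% of the kept genes. Of the 34 mitotic windows, 27 (79.4%) held the element CCAAT, against 39.4% of the kept genes and 37.9% of all windows. The GC box GGGCGG was in 26 (76.5%, against 65.7% of the kept genes), the E-box CACGTG was in 1, and the TATA element TATAAA, the AP-1 element TGANTCA and the octamer ATTTGCAT were in none. These are matches of letters and not measured binding sites. Apart from the kept genes used as background, shares are described for sets of which at least 80% had a window. The replication list (77.8%), the genes higher against both references (37 of 71, 52.1%) and those lower (76 of 112, 67.9%) did not reach that. For the replication list only counts are given. Besides those above, CCAAT was in 20 of its 35 windows, GGGCGG in 25, CACGTG in 5 and TATAAA in 2. TGANTCA and ATTTGCAT were in none of them.

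Core histone genes were the list with the most genes higher against both references. Of 35 replication-dependent core histone genes 11 were higher than in resting WT, the same 11 were higher against both references and none was lower. Their median log2 ratio was 0.39 to resting WT and 0.59 to WT_30min, and it was 0.68 to resting WT with the trend over length removed. In 29 of the 35 both KO groups lay above all WT groups, an arrangement found in 19.1% of kept genes. Of 61 core histone entries listed, 35 passed the filter, whose mean takes in the KO groups. Hist2h3c1, among the 11 and the 29, and Hist1h3d and Hist1h2br, among the 29, were below 0.5 FPKM in all WT groups. Hist1h3g, among the 11 and the 29, was at 0.518, 0.370 and 0.394 FPKM in WT and at 1.30 and 1.05 in KO. These members were kept through their KO levels, so the filter itself favours higher members in these counts. Hist2h2aa1, a histone H2A gene on chromosome 3, was at 11.1 FPKM in WT_0min, 6.18 in WT_30min and 6.02 in WT_60min, against 38.7 and 35.4 in KO. Hist2h2ac, its neighbour, was at 0.958, 0.591 and 0.681 FPKM in WT and at 3.59 and 3.72 in KO. Hist2h3c1 was at 0.00055, 0.0016 and 0.06 FPKM in WT and at 1.31 and 1.17 in KO, so near 0 in WT that no fold is given. Core histone genes are near-identical copies, so the share of reads given to each member is uncertain. Hist2h2aa1 and Hist2h2aa2, both among the 11, have the same deposited locus.

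Linker histones, which bind DNA between nucleosomes, were higher in 3 of 5 kept genes against both references. Hist1h1c was at 49.7, 48.6 and 38.2 FPKM in the WT groups in order of time and at 129.9 and 117 in KO. Hist1h1d was at 2.87, 3.32 and 2.63 FPKM in WT and at 9.17 and 7.31 in KO. The third was Hist1h1e, with log2 ratios of 1.20 and 1.15, whereas the ratios of the polyadenylated H1f0 were 0.13 and 0.38. Both KO groups lay above all WT groups in 4 of the 5, H1f0 included. Among 10 histone variants with polyadenylated mRNAs, H3f3b, which encodes histone H3.3, was higher against both references, at 306, 294 and 428 FPKM in WT and 511 and 589 in KO. Cenpa, the centromeric H3, was lower than in resting WT with a log2 ratio of -0.75, and its ratio to WT_30min was -0.40. The other 8 variants stayed within the limits against resting WT, and Hist3h2a is on the list of core histones as well. Against WT_30min, H2afj (log2 ratio of 0.67) and Hist3h2a (0.50) were past the upper limit. In 5 of the 10 variants both KO groups lay above all WT groups, against 19.1% of kept genes, and in 1 they lay below.

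The stem-loop that closes replication-dependent histone mRNAs was found in 21 of the 35 core histone genes, 3 of the 5 linker histone genes (the 3 that were higher) and 1 of the 10 variants, against 32 of 11177 kept genes with a GENCODE M21 transcript (0.286%). It is shown because the libraries were selected for poly(A) tails, which mRNAs ending at the stem-loop lack. Capitals mark the 16-base stem-loop, the flanks are in lower case, and coordinates are on mm10 (GRCm38).
Hist2h2aa1 (chr3:96246027-96246052, plus strand): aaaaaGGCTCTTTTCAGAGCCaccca
Hist2h2ac (chr3:96220413-96220438, minus strand): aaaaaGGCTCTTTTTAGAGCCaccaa
Hist1h1c (chr13:23739507-23739532, plus strand): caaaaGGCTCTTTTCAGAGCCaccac
Hist1h1d (chr13:23555782-23555807, plus strand): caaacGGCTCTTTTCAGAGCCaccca
Of the 14 core or linker histone genes higher against both references 8 held the stem-loop in an annotated transcript. The search covered annotated transcripts only, and some of these may stop before the stem-loop. A gene without a match is therefore not shown to lack it. Windows around the start were found for 29 of the 35 core histone genes, and 24 (82.8%) held CCAAT, 17 (58.6%) TATAAA and 6 (20.7%) the octamer ATTTGCAT. The shares were 39.4%, 7.06% and 1.29% of the kept genes, and 37.9%, 14.2% and 1.75% of all windows. Of the genes for cap binding and histone 3′ end processing, 11 were kept and none passed a limit against resting WT, with a median log2 ratio of 0.02. None of the 22 kept genes of DSIF, P-TEFb, the 7SK particle and the super elongation complex passed either, with medians of -0.10 and -0.03.

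**Figure D3:**
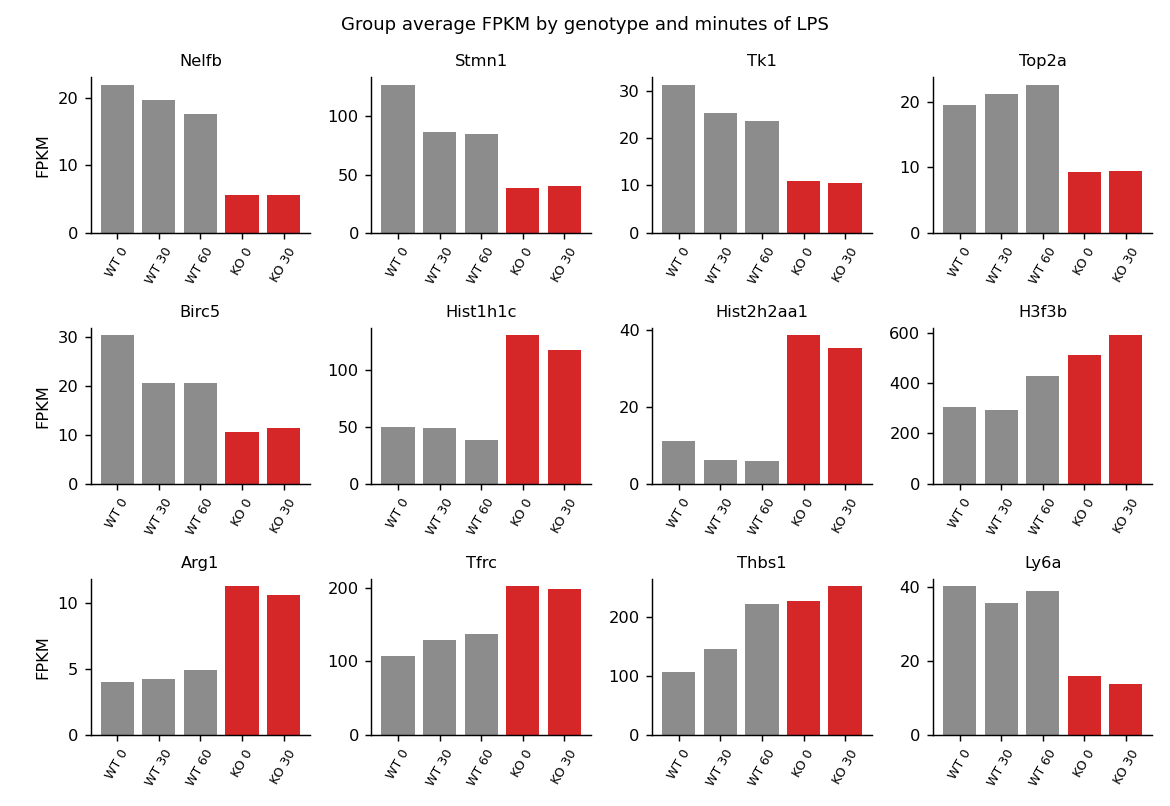
Group average FPKM of 12 genes in WT (grey) and Nelfb KO (red) at 0, 30 and 60 min of LPS, each panel with its own axis from 0 and no error bars since the table gives averages. Nelfb, Stmn1, Tk1, Top2a, Birc5 and Ly6a are lower in both KO groups than in all WT groups, and Hist1h1c, Hist2h2aa1, H3f3b, Arg1, Tfrc and Thbs1 are higher, with Thbs1 in WT_60min at 222 FPKM close to the 227 of resting KO.

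Of 36 interferon-stimulated genes 13 were lower than in resting WT, 4 of them against both references, none was higher, and the median log2 ratios were -0.46 and -0.35. Both KO groups lay below all WT groups in 33 of the 36, and 36 of 36 had a ratio to WT_30min below 1. Ifit3, an antiviral protein of the interferon-induced tetratricopeptide family, was at 50.8, 40.5 and 72.6 FPKM in the WT groups in order of time and at 23.4 and 22.4 in KO. Ifi44 was at 14.3, 12.9 and 15.8 FPKM in WT and at 6.51 and 5.97 in KO. Oas3, a synthetase that activates RNase L, and Ifit2 were the other members lower against both references, with log2 ratios to resting WT of -0.98 and -0.86. Isg15, the ubiquitin-like modifier, had -1.05 to resting WT and -0.71 to WT_30min, just inside the limit of -0.74.

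Lists of the core machinery of the cell, many of them short mRNAs, had medians below 0 against resting WT and near 0 against WT_30min, with most members inside the limits. Of 81 cytosolic ribosomal protein genes 21 were lower than in resting WT, with a median log2 ratio of -0.54, but the median to WT_30min was 0.04. Rpl41 was at 3737 FPKM in WT_0min, 1830 in WT_30min and 1881 in WT_60min, against 1798 and 1849 in KO, so that only WT_0min stood apart. Rps27 alone passed both limits, at 12.1, 37.6 and 13.3 FPKM in WT and 2.54 and 13.1 in KO, and its reads may be shared with near-identical copies. Among 81 subunits of the respiratory chain and ATP synthase, 9 were lower than in resting WT and none against both references, with medians of -0.39 and 0.07. Atp5e, a subunit of ATP synthase, was at 1096 FPKM in WT_0min and between 368 and 423 in the other 4 groups. The lists of mitochondrial ribosomal proteins (8 of 77 lower, medians of -0.33 and 0.03), proteasome subunits (5 of 47, -0.40 and -0.02), small nuclear ribonucleoproteins (3 of 21, -0.46 and -0.03) and RNA polymerase II subunits (2 of 13, -0.30 and 0.04) had the same form, and none of their members passed against both references.

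**Figure D4:**
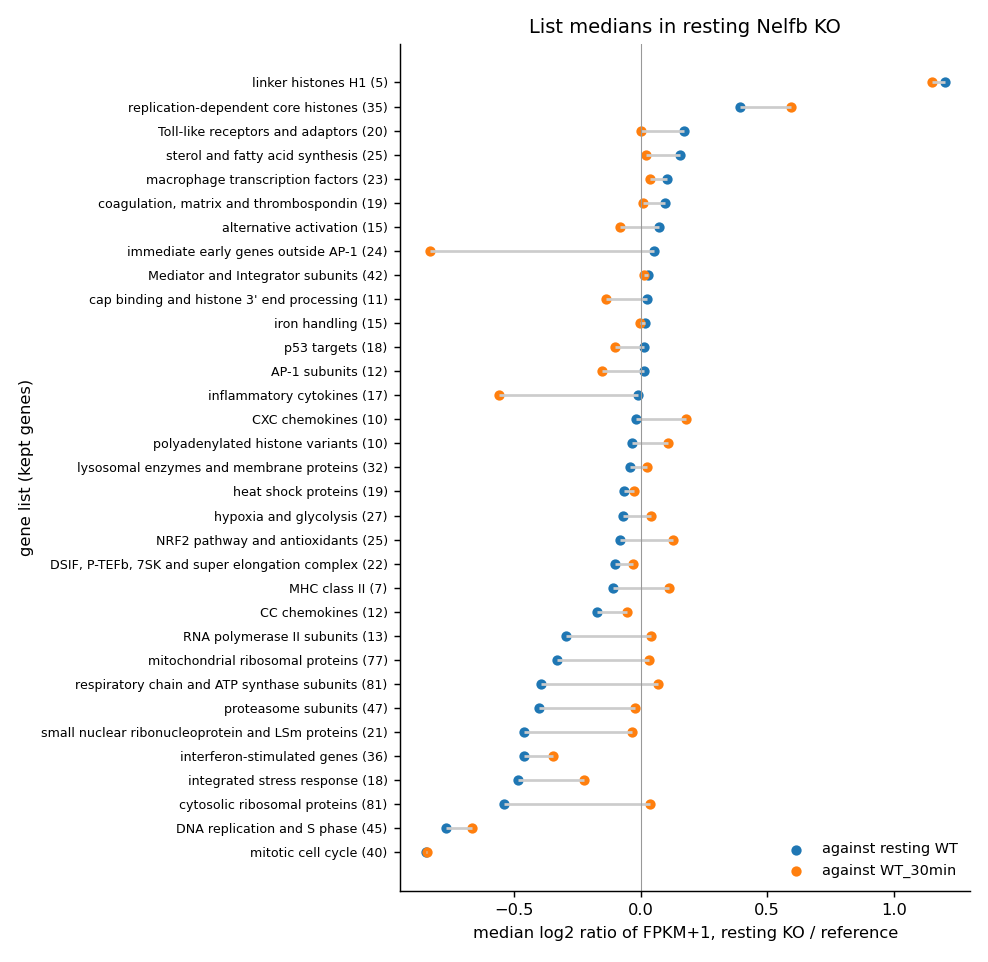
Median log2 ratio of FPKM + 1 in resting Nelfb KO to resting WT (blue) and to WT_30min (orange) for each gene list with at least 5 kept genes, whose number is in brackets. The mitotic and replication lists are at -0.85 to -0.67 against both, linker histones at 1.15 to 1.20, and cytosolic ribosomal proteins move from -0.54 to 0.04. Immediate early genes and inflammatory cytokines are near 0 against resting WT and at -0.83 and -0.56 against WT_30min, which had received LPS.

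Single genes of macrophage function passed against both references in either direction. Arg1, the arginase of alternative activation, was at 4.03, 4.21 and 4.88 FPKM in the WT groups in order of time and at 11.3 and 10.6 in KO, but of the other 14 kept genes on that list only Vegfa was past a limit against resting WT (log2 ratio of 0.75, and 0.22 to WT_30min). Tfrc, the transferrin receptor, was at 106, 129 and 136 FPKM in WT and at 202 and 198 in KO. Thbs1, the matrix protein thrombospondin 1, was at 107, 145 and 222 FPKM in WT and at 227 and 252 in KO, so that KO and WT_60min differed little. Lower against both references were Plau, the urokinase, at 19.5, 21.2 and 55.0 FPKM in WT and 8.50 and 11.2 in KO, and Mmp12, the macrophage elastase, at 50.4, 56.8 and 60.5 in WT and 26.6 and 26.3 in KO. The serine synthesis enzyme Phgdh and the mitochondrial folate enzyme Mthfd2, both on the list of the integrated stress response, had log2 ratios to resting WT of -1.37 and -0.79 and passed against both references. Other genes lower against both, named after their values were seen, were Ly6a, a surface antigen of the Ly6 family, at 40.1, 35.6 and 39.0 FPKM in WT and 15.9 and 13.6 in KO, and Cd5l, a secreted macrophage protein, at 213, 182 and 182 in WT and 89.2 and 89.9 in KO.

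Among chemokine genes, Ccl6 and Ppbp were higher against both references. Ppbp, the precursor of a platelet chemokine, had log2 ratios of 0.53 and 0.59, while Cxcl3 had 0.83 to resting WT and -0.29 to WT_30min. Ccl6 was at 166, 160 and 158 FPKM in the WT groups and 257 and 240 in KO. Ccl2, the ligand of CCR2, was lower against both, at 40.5 FPKM in resting WT and 22.2 in resting KO, whereas after LPS it was at 72.4 in WT_30min and 59.9 in Nelfb_KO_30min. Ccl7, next to it on chromosome 11, had log2 ratios of -0.85 to resting WT and -0.29 in the pair at 30 min. To WT_30min the ratios were -1.66 for Ccl2 and -1.84 for Ccl7. Both genes were higher in WT_30min than in resting WT (log2 ratios of 0.82 and 0.99), which widens their difference to that reference. Of the 12 kept AP-1 genes, Junb, Fosl2 and Jund were higher than in resting WT. Jund was at 22.9, 22.4 and 24.8 FPKM in WT and at 34.2 and 38.2 in KO, and it passed against both references. Junb was at 69.1 FPKM in resting WT and 111 in resting KO, below the 173 of WT_30min, so that its log2 ratio changed sign from 0.68 to -0.63. Fosl2 had 0.79 and 0.29. Of 24 other immediate early genes, 3 were higher than in resting WT (Btg2, Ier5 and Nr4a2) and none against both. None of the 17 kept inflammatory cytokine genes passed a limit against resting WT, with a median log2 ratio of -0.01.

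Lyz2, the locus that carries Cre, was at 19.7, 23.3 and 28.5 FPKM in WT and at 41.6 and 55.5 in KO. The number of Cre alleles per animal is not given in the sources used here, Lyz2 shares reads with its close copy Lyz1, and the part of either in this difference was not tested. No other kept gene within 10 Mb of Lyz2 (65 genes) passed against both references. Within 10 Mb of Nelfb, 4 of 197 kept genes (2.03%) did, against 1.63% of all kept genes, and they were Ass1 and Gm5424, which have the same deposited locus, Ier5l and the short RNA entry Mir3960. Ass1, argininosuccinate synthetase, was at 15.3, 12.8 and 13.7 FPKM in WT and at 5.29 and 5.63 in KO.

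The cultures carried macrophage markers in every group. All 12 macrophage markers were kept, with summed levels of 7572 to 8685 FPKM over the 5 groups, and Csf1r, the receptor of the growth factor in the medium, was at 662 FPKM in resting WT and 782 in resting KO. Against resting WT 6 of the 12 were below 0 and 3 were past the upper limit. In 3 both KO groups lay below all WT groups and in 5 above them. C1qa, a subunit of complement C1q, was the lowest at 845, 602 and 597 FPKM in WT and 570.1 and 571 in KO, with log2 ratios of -0.57 and -0.08. Mertk, a receptor for the uptake of dying cells, had log2 ratios of 0.73 to resting WT and 0.38 to WT_30min, and Lyz2 was past the limit against both references. Markers of other cells summed to 0.563 to 0.841 FPKM for T and NK cells (0 of 9 kept), 15.6 to 23.7 for B cells (1 of 6 kept), 7.99 to 11.3 for dendritic cells (3 of 9), 74.1 to 134 for neutrophils (2 of 8), 2.34 to 3.27 for mast cells and basophils (1 of 7), 0.926 to 1.29 for erythroid cells and megakaryocytes (1 of 9) and 14.99 to 19.5 for fibroblasts (5 of 8). The neutrophil sum was 101 in resting WT, 74.1 in WT_30min and 123 in resting KO, and its part in the results was not tested. Nearly all of it was S100a8, at 98.8, 72.5 and 122 FPKM in these groups. S100a9, the other kept marker, was at 0.901, 0.659 and 0.529 FPKM. Under 0.5 FPKM in every group were 5 of the 8 markers, so the sum does not measure a share of neutrophils.

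Leaving aside the entries of short noncoding RNAs, 48 genes were higher and 101 lower against both references. The higher genes with a transcript (47 of 48) had a median length of 1930 nt and 3 exons, and 18 had a single exon, against 3020 nt, 9 exons and 2.86% with a single exon for all kept genes. Of these 48 genes, 14 were the core or linker histone genes described above, and most of the single-exon genes were among them. The lower genes (99 of 101 with a transcript) had a median of 2357 nt and 10 exons, and none had a single exon. GC content was 49.9% and 49.1%, against 49.9% for all. Genes lower only against resting WT had a median length of 1231.5 nt, and those higher only against resting WT 4680 nt.

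The extremes of the ratio itself were taken up by noncoding RNAs, most of which lack a poly(A) tail. All 15 highest and all 15 lowest log2 ratios to resting WT belonged to entries of microRNAs, small nucleolar or small nuclear RNAs, except for Rn45s, the long precursor of ribosomal RNA, which was among the highest and is counted with these entries here. The 15 highest were all listed at 0 in resting WT and the 15 lowest all at 0 in resting KO, so no fold is given. Of 128 such entries kept, 112 were listed at 0 in at least 1 group, whereas 1 of the other 11130 kept genes was. They made up 23 of the 71 genes higher and 11 of the 112 lower against both references.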

How the data were processed

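BMDM libraries were prepared by the submitters from polyA-enriched RNA (TruSeq, paired-end HiSeq2500) and processed, per the submitters' processing notes, with CASAVA 1.8, TopHat2 2.1.0 and Cuffdiff of Cufflinks 2.2.1 on mm10. The deposited table holds 1 FPKM value per gene and group, which the authors averaged over 3 libraries. Depth per library is therefore unknown. It also holds fold changes, p-values and q-values of 4 comparisons by the authors, which were not used.

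Genes with a mean FPKM of at least 0.5 over 5 groups were kept, and log2 ratios were taken of FPKM + 1, which understates changes of low genes. limma was planned for values per library, but with group averages it could not be fitted and no test was run. Transcript lengths came from the longest coding transcript in GENCODE M21, found for 98.7% of kept genes (440 through an older symbol). Calls and the removal of the length trend (20 bins) were tested on simulated data. Named genes were the 15 highest and 15 lowest ratios to resting WT, the same against both references, the NELF subunits and Lyz2, and up to 4 members of each list by distance from 0 and 4 passing both references. The genes and lists were chosen with earlier results of these data known. Python 3.11 with numpy, pandas and matplotlib was used. Alternatives covered the pseudocount, filters, scaling, the length trend, repeated columns, zeros and fold limits. Some items of the table are not reported here.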

Additional observations from a re-analysis of the deposited data

How the results depend on the processing

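Counts are given as higher and lower against resting WT, then higher and lower against both references (184, 406, 71 and 112 as reported). With a pseudocount of 0.1 FPKM they were 389, 615, 127 and 230. A ratio of 1.5 either way gave 103 higher and 777 lower against resting WT and 200 lower against both. Quantile normalization gave 329 higher, and removing the trend over transcript length gave 240 lower, against resting WT. The remaining counts stayed within 1.5 times, including those without entries of short noncoding RNAs and Rn45s (156, 372, 48 and 101), a choice made after seeing the data. No log2 ratio of a named gene past a limit changed sign under any alternative.

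List medians to resting WT are listed where they moved by 0.2 or more on the log2 scale, a tolerance set for this purpose because no spread is known. With the length trend removed they became 0.68 for core histones, 0.19 for polyadenylated histone variants, -0.29 for cytosolic ribosomal proteins, -0.12 for the respiratory chain, -0.18 for the proteasome, -0.14 for small nuclear ribonucleoproteins, -0.054 for RNA polymerase II, 0.22 for CXC chemokines, 0.077 for CC chemokines, 0.13 for MHC class II, and -0.21, 0.29 and -0.16 for dendritic cell, neutrophil and mast cell markers. Quantile normalization gave -0.17 for cytosolic ribosomal proteins, 0.18 for lysosomal proteins and 0.26 for macrophage markers. Without a filter, linker histones gave 0.077, dendritic cell markers 0.0090, and mast cell and erythroid markers 0.00, since genes near 0 FPKM then enter. A filter at 1 FPKM gave 0.30 for neutrophil markers, and the pseudocount of 0.1 FPKM gave 0.58 for erythroid markers. The cause of the other shifts was not tested.

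No paired analysis was possible because the table holds group averages and its columns carry no replicate number, and the alternatives that leave out 1 library have no values. Differences were not set against the spread between the 3 libraries of a group, since the authors' own p-values were not used.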
